A study of Mus musculus with 8 samples.

Results

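The genes described here are 8 genes of antigen presentation by MHC class II: Cd74, H2-Aa, H2-Ab1, H2-Eb1, H2-DMa, H2-DMb1, Ciita and Cd86. They were chosen by gene symbol, with earlier results of these data known. All 8 were among the 17644 genes of the deposited expression table. The tissue was the brain next to a cavity made in the motor cortex by aspiration, taken within 1.0 mm of the cavity from male C57BL/6NCrSlc mice aged 11 weeks. Mice of this one strain made up both groups, every mouse had the lesion, and uninjured brain was not analysed here. In 4 samples the brain was removed 1 week after the lesion, and in 4 (no delay) it was removed immediately after it. RNA was measured by CAGE, cap analysis of gene expression, which sequences a tag from the capped 5′ end of each RNA. A CAGE level therefore does not scale with the length of the transcript, and levels are given as CPM, in which the tags of every library are scaled to the same total. The labels do not say that each sample came from its own mouse, so p-values measure the spread between these samples.

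Libraries are called A to D within each group, in the alphabetical order of the tag in their column name, and a letter shared by 2 groups does not pair them. A second tag in the column names is the same within a group and differs between the groups, so anything that went with it cannot be told apart from the time after the lesion. The libraries held 8278855 to 13998941 tags, so that 3 tags, the upper limit that a count of 0 allows, correspond to 0.214 to 0.362 CPM (counting error only). Brain markers were present in all 8 libraries: Snap25, a synaptic protein of neurons, stood at 2665 to 3025 CPM at 1 week and at 3015 to 3585 CPM without delay.

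MHC class II molecules are pairs of an alpha and a beta chain that carry peptides from engulfed proteins to the cell surface, where CD4+ T cells read them. The invariant chain, the product of Cd74, guides new class II pairs to the endosome and blocks their groove until it is degraded. H2-DM then exchanges its last fragment for a peptide. Ciita encodes the coactivator that switches class II genes on, and Cd86 is a co-stimulatory ligand that T cells need beside the peptide. In healthy brain tissue these genes are low, and microglia and macrophages are among the cells known to raise them after injury.

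The promoters of 3 of the chains are shown because class II genes are known to share promoter boxes through which CIITA acts. RefSeq (build GRCm38.p6) gave windows from 250 bases before to 50 bases after a gene's start for 4 of the 8 genes (5 windows, all on chromosome 17): H2-Aa, H2-Eb1, H2-DMb1 and H2-DMa. Cd74, H2-Ab1, Ciita and Cd86 are named only. The 120 bases before the start follow, 5′ to 3′ on the gene's strand. Capitals mark each CCAAT box on either strand, which reads ATTGG on the opposite one, and a longer word common to H2-Eb1 and H2-DMb1. H2-DMa was added because its level differed least between the groups, so it was chosen after the values were seen. It is shown at the first of its 2 starts, and which of them its tags came from was not examined. Whether these sequences bear on the levels was not tested.
H2-Aa (chr17:34287824-34287943, minus strand): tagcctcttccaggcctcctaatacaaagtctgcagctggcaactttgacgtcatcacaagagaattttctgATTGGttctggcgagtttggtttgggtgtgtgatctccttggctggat
H2-Eb1 (chr17:34305747-34305866, plus strand): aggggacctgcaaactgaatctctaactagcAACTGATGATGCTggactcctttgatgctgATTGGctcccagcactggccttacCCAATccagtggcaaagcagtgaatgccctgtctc
H2-DMb1 (chr17:34153071-34153190, plus strand): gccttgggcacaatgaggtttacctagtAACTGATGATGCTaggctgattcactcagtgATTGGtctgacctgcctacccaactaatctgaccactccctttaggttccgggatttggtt
H2-DMa (chr17:34122712-34122831, plus strand): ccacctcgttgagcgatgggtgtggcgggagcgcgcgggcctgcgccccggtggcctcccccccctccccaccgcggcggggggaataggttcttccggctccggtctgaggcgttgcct

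An ATTGG stood 48 to 44 bases before the start of H2-Aa, 59 to 55 bases before that of H2-Eb1 and 61 to 57 bases before that of H2-DMb1. CCAAT on either strand occurred in 37.4% of the 32851 RefSeq windows. H2-Eb1 held a further CCAAT 35 to 31 bases before its start. H2-DMa held none at its first start, and at its second start an ATTGG 198 to 194 bases before it. The word AACTGATGATGCT lay 89 to 77 bases before the start of H2-Eb1 and 92 to 80 bases before that of H2-DMb1, upstream of the ATTGG in both. It was found by comparing these windows, so it was chosen after they were seen, and 3 of all windows held it (the third was that of Slc39a10). The 5 windows held no match to an X box core written as AGNNACAGA (8.48% of all windows), to the GAS motif TTCNNNGAA (8.30%) or to the ISRE core GAAANNGAA (8.56%), each searched on both strands. Such fixed patterns miss variants. AGCAACTGA in H2-Eb1 and AGTAACTGA in H2-DMb1, which run into the shared word, differ from the X box pattern only at the T. The lack of a match therefore does not show that an X box is absent. The first H2-DMa window was 75.0% G and C over the bases shown, and those of H2-Aa, H2-Eb1 and H2-DMb1 were 47.5%, 51.7% and 48.3%. The second H2-DMa window, whose bases are not shown, was 29.2% G and C over the 120 bases before its start.

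Class II presentation genes were higher 1 week after the lesion. Of the 8 genes, 7 passed the filter of 1 CPM or more in at least 4 libraries, and 6 of these 7 rose (limma on log2(CPM + 1), Benjamini-Hochberg adjusted p under 0.05 over all 14718 genes tested). Among all genes tested, 23.4% were called higher and 13.4% lower. The invariant chain, the 3 classical chains, H2-DMb1 and Cd86 rose, with 1-week means 5.64 to 8.57 times the no-delay means. H2-DMa was not called, and Ciita had too few tags to be tested. The median log2 fold change of the 7 genes was 2.00, against 0.06 for all genes tested. Genes near 0 without delay pass the filter only where they are higher at 1 week. The 3 classical chains, H2-DMb1 and Cd86 each had under 1 CPM in at least 1 no-delay library and passed through their 1-week values. The count of calls and the median of the 7 genes are therefore given as descriptions.

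In all 7 tested genes, and in Ciita, which was not tested, the lowest 1-week value exceeded the highest no-delay value. This was the case for 22.7% of all genes tested, and the limit of the filter given above holds here too. The balance of calls over all genes depended on the scaling. With CPM as deposited 3439 genes were higher and 1971 lower, with TMM scaling 2904 and 2636, and with quantile normalization 2464 and 3211. The 6 class II calls held under each of these scalings. In tissue of mixed cells, more cells of a type and more RNA per cell cannot be told apart.

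**Figure D1:**
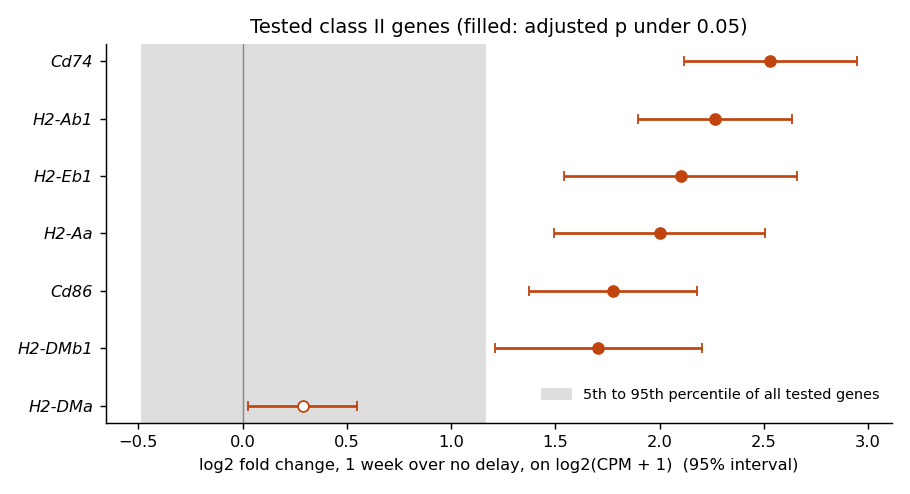
Log2 fold changes of the 7 tested class II genes, 1 week over no delay on the log2(CPM + 1) scale, with 95% intervals from limma (n = 4 libraries per group). Filled points passed an adjusted p of 0.05, and the grey band spans the 5th to the 95th percentile of all tested genes (-0.48 to 1.16). Every gene but H2-DMa lies to the right of the band, and H2-DMa lies within it at 0.29.

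Cd74 was the most abundant of the 8 genes at 1 week. Its log2 fold change was the largest of the 7 tested on the log2(CPM + 1) scale, which compresses genes near 1 CPM, but not by edgeR on recovered tags, where it was 2.68, against 3.02 for H2-Ab1, 2.89 for H2-Eb1 and 2.87 for H2-Aa. These 3 chains also had larger ratios of means (8.57 for H2-Ab1, 7.88 for H2-Aa and 7.81 for H2-Eb1) than Cd74. It stood at 49.8, 50.9, 33.1 and 27.8 CPM in 1-week libraries A to D, and at 5.02, 5.40, 5.74 and 7.92 CPM in no-delay libraries A to D. Libraries A and B were the high ones at 1 week, and D was the highest without delay. The means were 40.4 CPM ± 11.7 at 1 week and 6.02 CPM ± 1.30 without delay (SD, n = 4 each), a ratio of 6.71. The log2 fold change was 2.53 (SE 0.19, limma adjusted p = 9.5e-07), and it ranked 82 by fold change among the genes tested.

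The classical chains rose by similar factors. H2-Aa and H2-Ab1 encode the alpha and beta chains of I-A, the class II molecule at the surface of C57BL/6 cells. H2-Eb1 encodes the beta chain of I-E, which mice of this strain do not show at the cell surface because their alpha chain gene is defective.

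H2-Aa stood at 8.70, 6.06, 4.64 and 4.64 CPM in 1-week libraries A to D, and at 0.20, 1.10, 0.50 and 1.25 CPM in no-delay libraries A to D. The no-delay values rest on 31 tags in all, and that of library A on 2. The log2 fold change was 2.00 (SE 0.23, limma adjusted p = 3.2e-05), and over the pooled tags H2-Aa was 7.48 times higher at 1 week (counting error alone allows 5.15 to 11.2, 95%).

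H2-Ab1 stood at 10.6, 11.4, 8.21 and 6.27 CPM in 1-week libraries A to D, and at 0.92, 1.10, 1.09 and 1.15 CPM in no-delay libraries A to D. It had the tightest no-delay group of the 3 chains (1.07 CPM ± 0.10, SD, n = 4), and the largest ratio of means among the genes called, 8.57. The log2 fold change was 2.26 (SE 0.17, limma adjusted p = 9.3e-07).

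H2-Eb1 stood at 10.2, 11.6, 5.64 and 4.64 CPM in 1-week libraries A to D, and at 0.61, 0.73, 1.09 and 1.67 CPM in no-delay libraries A to D. Its 1-week values fell into a higher pair, A and B, and a lower pair, C and D. The log2 fold change was 2.10 (SE 0.26, limma adjusted p = 4.7e-05).

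The partners of H2-DM behaved differently. H2-DMa encodes its alpha chain and H2-DMb1 a beta chain, and both chains are needed for the exchanger to form. H2-DMb1 stood at 4.11, 8.42, 5.0 and 3.26 CPM in 1-week libraries A to D, and at 0.72, 0.82, 1.29 and 0.52 CPM in no-delay libraries A to D. Library B was the high one at 1 week, and the groups were well apart. The log2 fold change of H2-DMb1 was 1.70 (SE 0.23, limma adjusted p = 1.0e-04). H2-DMb2, a close copy of H2-DMb1, was not analysed here, and how tags common to both were counted is not given in the sources used here.

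H2-DMa stood at 9.18, 10.3, 8.14 and 8.06 CPM in 1-week libraries A to D, and at 7.68, 6.04, 7.52 and 7.19 CPM in no-delay libraries A to D. It was the highest of the 8 genes in every no-delay library except D, where Cd74 was higher. The groups did not overlap, but the gap between them, from 8.06 CPM at 1 week to 7.68 CPM without delay, was smaller than the SD of either group (1.04 CPM at 1 week, 0.740 CPM without delay). The log2 fold change was 0.29 with a 95% interval of 0.03 to 0.55 and did not pass (limma adjusted p = 0.0792). With quantile normalization it was -0.02 (adjusted p = 0.892), and its adjusted p lay between 0.0669 and 0.892 over the alternatives tried. There was 0.572 ± 0.189 of an H2-DMb1 tag per H2-DMa tag at 1 week and 0.118 ± 0.0442 without delay (SD, n = 4 each, no test).

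Ciita, the class II coactivator, was at or near the limit of detection without delay. It stood at 1.21, 0.37, 0.71 and 0.33 CPM in 1-week libraries A to D, and at 0.10, 0, 0 and 0.10 CPM in no-delay libraries A to D. That is 29 tags over the 1-week libraries and 2 over the no-delay libraries, 12.2 times as many per tag sequenced (counting error alone allows 3.08 to 105, 95%). Every 1-week library was higher than every no-delay library, with A the highest. Ciita did not pass the filter and has no test here. Without a filter on low values its log2 fold change was 0.63 (limma adjusted p = 0.00788), on a scale that compresses values under 1 CPM.

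Cd86, the co-stimulatory ligand, followed the chains in direction but not in the order of its libraries. It stood at 5.56, 7.32, 7.57 and 4.48 CPM in 1-week libraries A to D, and at 1.43, 1.37, 0.99 and 0.63 CPM in no-delay libraries A to D. The highest 1-week value was that of library C, and the groups were well apart. The log2 fold change was 1.78 (SE 0.19, limma adjusted p = 1.3e-05), with a ratio of means of 5.64.

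**Figure D2:**
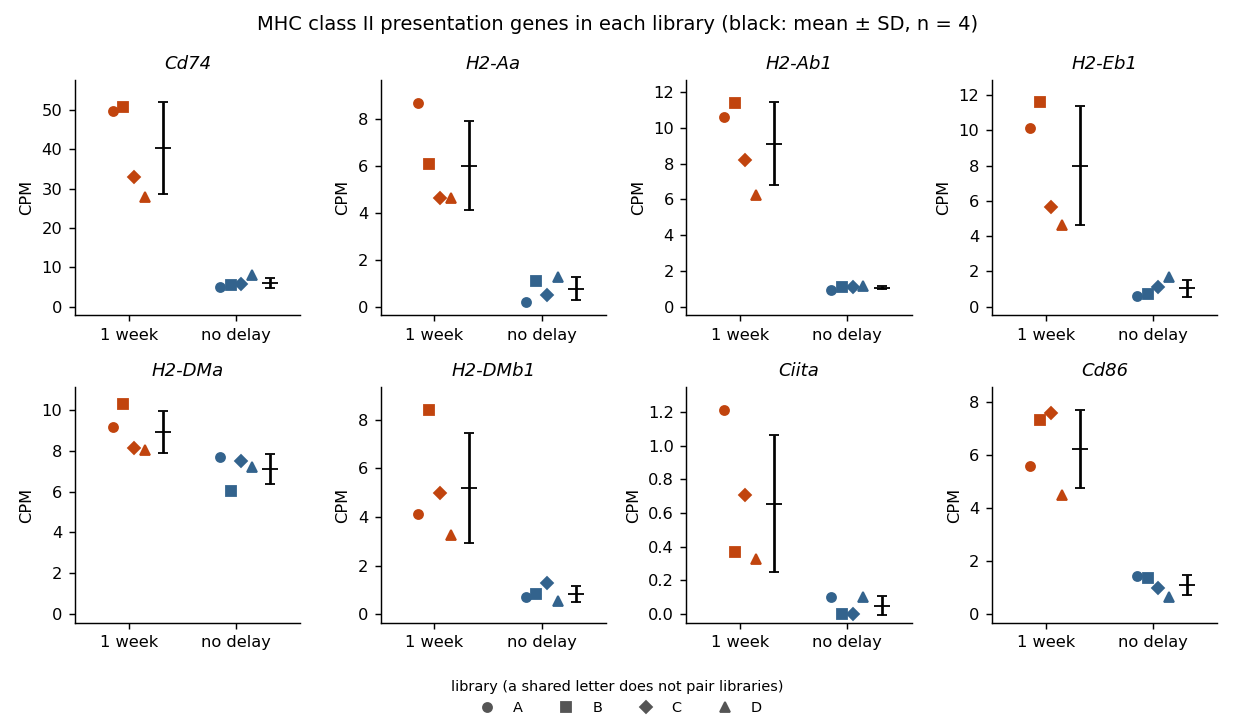
CPM of the 8 class II genes in each library, with 1 week on the left and no delay on the right of each panel. Symbols are libraries A to D, and black marks give the mean ± SD (n = 4). The groups do not overlap in any panel. They lie close together for H2-DMa (8.06 to 10.3 CPM at 1 week, 6.04 to 7.68 CPM without delay).

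Among the 1-week libraries, D was the lowest or tied for the lowest in all 8 genes. Library B was the highest in 5 of the 8 genes, A in 2 (H2-Aa and Ciita) and C in 1 (Cd86). The 8 genes together made up 99.3, 106, 73.0 and 59.5 CPM in 1-week libraries A to D, and 16.7, 16.6, 18.2 and 20.4 CPM in no-delay libraries A to D. Without delay it was D that had the largest sum, and it was the highest library in 4 of the 8 genes, Cd74 and the 3 classical chains (Ciita tied between A and D). Cd74 took 47.5% ± 2.03 of these tags at 1 week and 33.2% ± 3.82 without delay (SD, n = 4 each).

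The rise was then set against Csf1r, the receptor carried by microglia and macrophages in general, which stood at 294 CPM at 1 week and 73.6 CPM without delay. There were 17.3, 15.2, 11.1 and 10.9 Cd74 tags per 100 Csf1r tags in 1-week libraries A to D, and 6.52, 7.78, 7.53 and 11.0 in no-delay libraries A to D. The groups overlapped through no-delay library D, which lay above 1-week library D. The difference in the log2 ratio was 0.55 and did not pass (exact 2-sided permutation test over 70 arrangements, p = 0.0857, adjusted p = 0.150). For H2-Aa, H2-Ab1 and H2-Eb1 over Csf1r the differences were 0.02, 0.29 and 0.12, with adjusted p from 0.160 to 0.971 in the same exact test. The pseudocount of 1 compresses the chains, which are near 1 CPM without delay, far more than Csf1r. With a pseudocount of 0.25 the differences over Csf1r were 0.75 for H2-Aa, 0.81 for H2-Ab1, 0.68 for H2-Eb1 and 0.68 for Cd74, and none passed (exact permutation, adjusted p from 0.20 to 0.50). With 4 they were -0.88 for H2-Aa, -0.58 for H2-Ab1, -0.72 for H2-Eb1 and 0.18 for Cd74. The sign for the chains thus depended on the pseudocount, and the exact tests do not settle whether they rose more or less than Csf1r. Ratios of means, which use no pseudocount, were 8.57 for H2-Ab1, 7.88 for H2-Aa and 7.81 for H2-Eb1, against 3.99 for Csf1r. On that measure the chains rose more than Csf1r (no test).

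The 3 classical chains together gave 0.592, 0.570, 0.559 and 0.560 tags per Cd74 tag in 1-week libraries A to D, and 0.345, 0.543, 0.467 and 0.514 in no-delay libraries A to D. The 1-week libraries were close to each other and all above the no-delay ones. On the log2(CPM + 1) scale the chains over Cd74 differed the other way, by -0.53 for H2-Aa, -0.27 for H2-Ab1 and -0.43 for H2-Eb1. That scale also compresses the chains more than Cd74. With a pseudocount of 0.25 the differences were 0.07 for H2-Aa, 0.13 for H2-Ab1 and -0.00058 for H2-Eb1. Of the 7 ratios tested, 0 passed after adjustment over the 7 and 2 had an exact p under 0.05. These were H2-Aa and H2-Eb1 over Cd74, each with exact permutation p = 0.0286, the smallest that 4 against 4 libraries allow. Adjusted over the 7 this gave 0.10. A ratio at that floor passes only where most of the 7 reach it together, so that 0 passed says little about a single ratio.

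**Figure D3:**
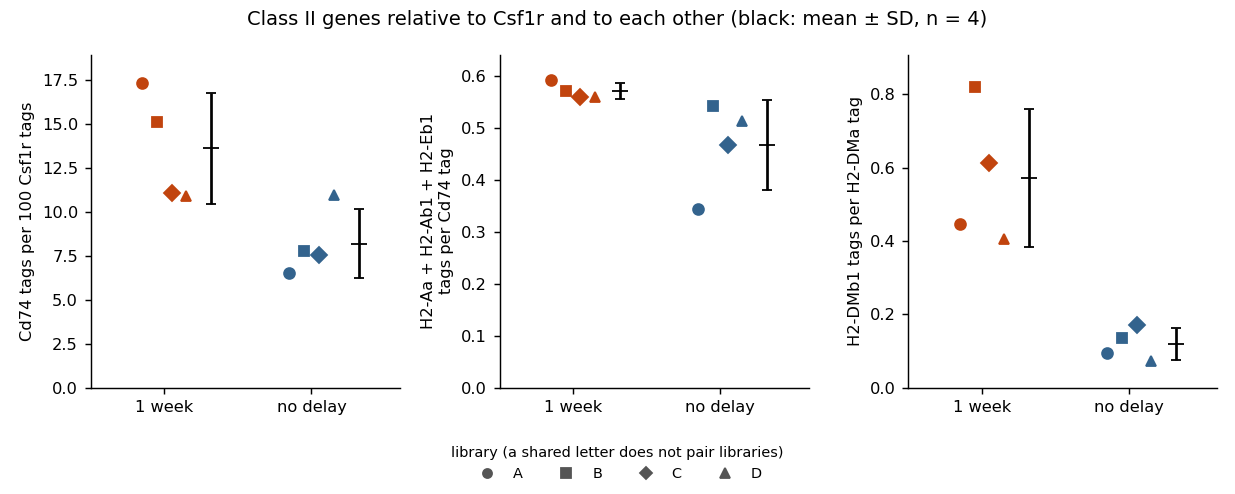
Ratios of CPM in each library: Cd74 per 100 Csf1r tags, the 3 classical chains per Cd74 tag, and H2-DMb1 per H2-DMa tag, with 1 week on the left of each panel. Symbols are libraries A to D, and black marks give the mean ± SD (n = 4). Cd74 per Csf1r overlaps between the groups (10.9 to 17.3 at 1 week, 6.52 to 11.0 without delay), and the other ratios do not.

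Further genes of the class II pathway were read from 6 lists with 46 entries, of which 36 were analysed and 32 tested: 25 were higher, 2 were lower and 5 were not called. Beside these counts, and those of each list below, 23.4% of all genes tested were called higher and 13.4% lower. List genes that are low without delay pass the filter only where they are higher at 1 week. H2-Oa and H2-Ob encode the chains of H2-DO, which holds H2-DM back. H2-Oa rose to 1.46 CPM ± 0.333 at 1 week, against 0.425 CPM ± 0.0656 without delay (SD, n = 4 each, limma adjusted p = 0.00221). H2-Ob was called at 1.83 CPM ± 1.02 and 0.628 CPM ± 0.427 (adjusted p = 0.0467), but its groups overlapped. In 8 of the 11 alternatives that tested H2-Ob it was no longer called (limma or edgeR adjusted p from 0.0515 to 0.454); among these were the fits that left out no-delay library B, C or D (0.0886, 0.129 and 0.0652). The H2-Oa call was lost with quantile normalization (adjusted p = 0.166).

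Of 8 genes of peptide loading and turnover, 6 were higher and 2 were not called, with a median log2 fold change of 1.32. Ifi30, the thiol reductase that opens disulfide bonds of antigens in the endosome, had 22.2 CPM ± 3.89 at 1 week and 2.11 CPM ± 0.511 without delay (log2 fold change 2.90, limma adjusted p = 7.2e-08). Ctss, the cathepsin that trims the invariant chain, had 251 CPM ± 32.4 and 36.6 CPM ± 4.35 (log2 fold change 2.74, adjusted p = 2.2e-08). Cd63, a tetraspanin of the compartments where class II is loaded, had 139 CPM ± 28.2 and 46.6 CPM ± 6.86 (log2 fold change 1.55; SD, n = 4 each). The 2 genes not called, named after their values were seen, were the ubiquitin ligase genes March1, which directs class II and Cd86 to degradation (95.3 CPM at 1 week, 87.4 CPM without delay, limma adjusted p = 0.257), and March8 (21.8 and 24.6 CPM, adjusted p = 0.324). Their symbols stand in date form in the deposited table.

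The factors that bind class II promoters changed little beside the chains. Of 7 genes, 4 were higher, 1 was lower and 2 were not called, with a median log2 fold change of 0.32. The 2 not called, named after their values were seen, were Rfxank, a further RFX subunit (12.7 CPM at 1 week, 9.37 CPM without delay, limma adjusted p = 0.0606), and Nfyb, a further NF-Y subunit (33.8 and 34.2 CPM, adjusted p = 0.875). Rfxank was called without no-delay library A (adjusted p = 0.0467) and without 1-week library D (0.0174). Rfx5 and Rfxap encode subunits of the RFX complex that binds the X box. Rfx5 had 17.4 CPM ± 1.68 at 1 week and 13.3 CPM ± 1.03 without delay (log2 fold change 0.36, limma adjusted p = 0.0141), and Rfxap was lower, with 31.7 CPM ± 0.630 and 45.5 CPM ± 4.83 (log2 fold change -0.50, adjusted p = 4.6e-04). Nfya, a subunit of the CCAAT-binding factor NF-Y, had 19.3 CPM ± 1.28 and 14.2 CPM ± 2.94 (log2 fold change 0.44, adjusted p = 0.0219; SD, n = 4 each). The Rfx5 call was lost without 1-week library B (limma adjusted p = 0.0502) and with quantile normalization (0.197). The Nfya call was lost without no-delay library B (limma adjusted p = 0.0523), without 1-week library B (0.0645) and with quantile normalization (0.137).

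Interferon gamma is the classical inducer of Ciita. Of 8 genes of its signalling that were analysed, 7 were higher and 1 was lower, with a median log2 fold change of 0.85; Ifng itself was not analysed here. Irf8, a transcription factor of microglia and macrophages, had 57.7 CPM ± 9.19 at 1 week and 7.74 CPM ± 0.485 without delay (log2 fold change 2.74, limma adjusted p = 2.2e-08). The receptor gene Ifngr1 had 51.8 CPM ± 2.80 at 1 week and 20.3 CPM ± 2.17 without delay (limma adjusted p = 4.0e-07; SD, n = 4 each). The gene called lower was Jak2, a kinase of the receptor (25.8 and 30.5 CPM, limma adjusted p = 0.0394). Leaving out 1 library ended the Jak2 call in 7 of 8 cases, all but 1-week library D (limma adjusted p from 0.0515 to 0.115).

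Beside Cd86, 8 genes of co-stimulatory and co-inhibitory molecules were analysed and 6 tested: 5 were higher and 1, Cd276, was not called (5.84 CPM at 1 week, 5.76 CPM without delay, limma adjusted p = 0.945). Cd274, which encodes the inhibitory ligand PD-L1, had 4.23 CPM ± 0.482 at 1 week and 0.803 CPM ± 0.444 without delay (log2 fold change 1.57, limma adjusted p = 3.6e-05). Havcr2, which encodes the receptor TIM-3, had 8.44 CPM ± 2.65 and 2.20 CPM ± 0.589 (limma adjusted p = 9.1e-05). Icosl, the ligand of ICOS, had 4.65 CPM ± 0.755 and 1.08 CPM ± 0.604 (adjusted p = 9.8e-05; SD, n = 4 each). Among 3 genes of the T cell side that were analysed, Lag3, a receptor that binds class II, was the one tested. It had 14.3 CPM ± 2.42 at 1 week and 1.21 CPM ± 0.127 without delay (log2 fold change 2.78, limma adjusted p = 5.9e-08). Cd4, the coreceptor for class II, stood at 0.12 to 0.36 CPM at 1 week and at 0.21 to 1.43 CPM without delay, too low to be tested. The T cell markers below summed to 0.52 to 2.13 CPM at 1 week, and which cells the Lag3 tags came from was not tested.

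**Figure D4:**
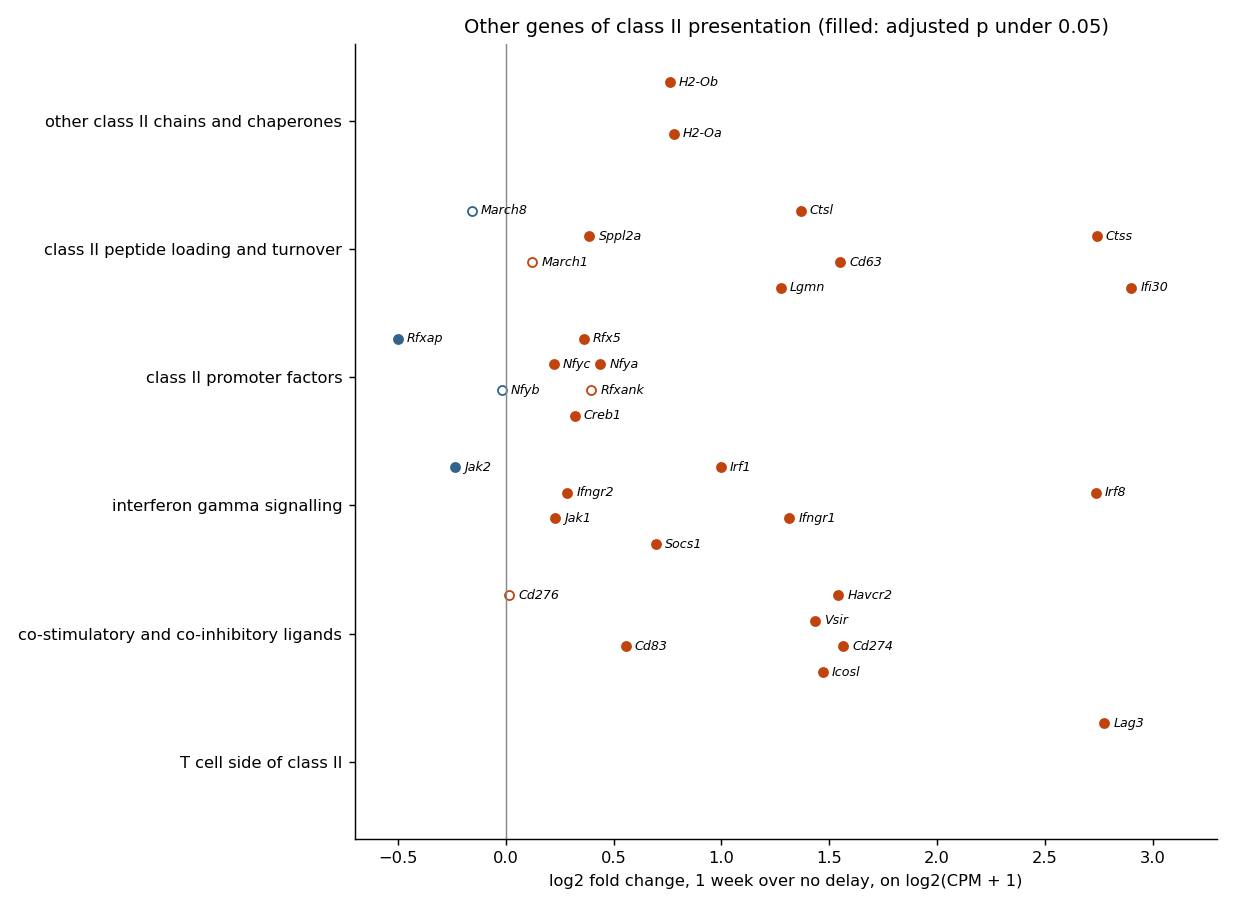
Log2 fold changes, 1 week over no delay on the log2(CPM + 1) scale, of 31 of the 32 tested genes of 6 lists around class II presentation. Filled points passed a limma adjusted p of 0.05, and blue marks values under 0. Ifi30, Ctss, Irf8 and Lag3 lie farthest to the right, from 2.74 to 2.90, and the promoter factors lie between -0.50 and 0.44.

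Markers of the cells that can carry class II were read beside these results, and their part in the rise was not tested. Markers that are low without delay pass the filter only where they are higher at 1 week, so counts of calls are given as descriptions. Among those named below, Ms4a7, Itgax, Batf3 and Cd79b had under 1 CPM in every no-delay library. All 10 microglia markers were higher, beside 23.4% of all genes tested. Their median log2 fold change was 1.87, and the list summed to 1485 to 2091 CPM at 1 week and to 468 to 475 CPM without delay. Fcrls, Aif1 and Gpr34 had the largest changes in that list, with log2 fold changes of 2.37, 2.13 and 2.02. Of 10 monocyte and macrophage markers, 5 were tested and all 5 were higher (Mrc1 and F13a1 were not called with quantile normalization, limma adjusted p = 0.159 and 0.0840, and the groups of F13a1 overlapped). The list summed to 137 to 351 CPM at 1 week and to 19.7 to 25 CPM without delay. At 1 week most of that sum was Lyz2, the lysozyme of macrophages (162 CPM ± 81.1 at 1 week, 5.50 CPM ± 1.22 without delay, SD, n = 4 each). Ms4a7, a marker of macrophages that are not microglia, had 9.71 and 0.640 CPM, and fibronectin, Fn1, had 29.7 and 10.2 CPM (log2 fold changes 2.63 and 1.43). Ccr2 and Ly6c2, which mark fresh monocytes, stood at 0.08 to 0.67 CPM and 0.33 to 0.60 CPM at 1 week, and at 0 to 0.20 CPM and 0 to 0.18 CPM without delay. Plac8, also not tested, stood at 0.81 to 4.95 CPM at 1 week and at 0.20 to 0.63 CPM without delay. The groups overlapped for the remaining untested markers, Cd163 (0.52 to 1.71 and 0.51 to 0.89 CPM) and Lyve1 (0.14 to 0.48 and 0 to 0.40 CPM).

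Of 10 dendritic cell markers, 5 were tested: 2 were higher, 1 was lower and 2 were not called, with a median log2 fold change of -0.01. They summed to 227 to 242 CPM at 1 week and to 261 to 288 CPM without delay. Most of this was Fscn1 (212 CPM at 1 week, 253 CPM without delay), an actin bundler that neurons also express, which was the gene called lower (log2 fold change -0.25, limma adjusted p = 0.00624). The 2 not called, named after their values were seen, were Flt3, a growth factor receptor (10.8 CPM at 1 week, 10.9 CPM without delay, limma adjusted p = 0.956), and Zbtb46, a transcription factor (9.62 and 11.2 CPM, adjusted p = 0.187). Zbtb46 was called lower with quantile normalization (log2 fold change -0.48, limma adjusted p = 0.00764). Itgax, which encodes CD11c, had 2.40 CPM ± 0.801 at 1 week and 0.0750 CPM ± 0.0957 without delay (SD, n = 4 each, limma adjusted p = 3.7e-05). Batf3 had 1.89 and 0.730 CPM (limma adjusted p = 0.00852, and 0.173 with quantile normalization). Itgax and Batf3 passed the filter only through their 1-week values. Xcr1 and Clec9a, which define cross-presenting dendritic cells, were at 0 in all no-delay libraries and reached at most 0.07 and 0.44 CPM at 1 week. Of 6 B cell markers analysed, Cd79b was the one tested and was called higher (1.95 and 0.428 CPM, limma adjusted p = 6.2e-04). It passed the filter only through its 1-week values. The B cell list summed to 2.35 to 5.91 CPM at 1 week and to 0.61 to 2.70 CPM without delay. It was highest in 1-week libraries A and D, and its part in the class II rise was not tested. Of 5 T cell markers analysed, 0 passed the filter. They summed to 0.52 to 2.13 CPM at 1 week and to 0.61 to 1.09 CPM without delay, with Lck as the most abundant (0.635 and 0.570 CPM) and Cd3g at 0 in all no-delay libraries. Neutrophil markers summed to 1.14 to 4.95 CPM at 1 week and to 0.61 to 12.9 CPM without delay. S100a8, their most abundant gene, was not called (limma adjusted p = 0.369). It reached 10.7 CPM in no-delay library D and 6.04 CPM in no-delay library B. Library D had the highest no-delay Cd74 (7.92 CPM), but Cd74 was lower in no-delay library B (5.40 CPM) than in C (5.74 CPM).

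**Figure D5:**
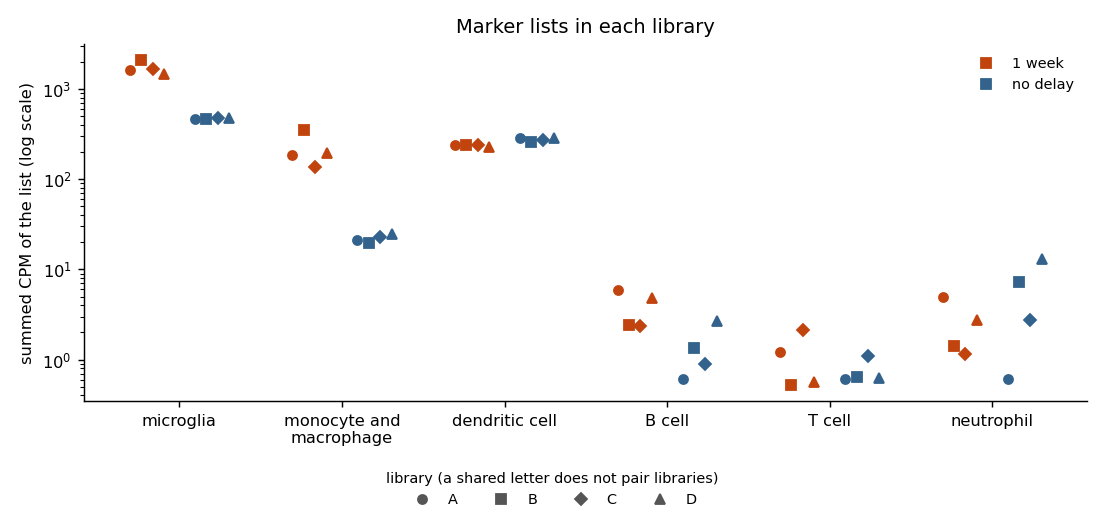
Summed CPM of each marker list in each library, on a log scale, with 1 week on the left of each pair. Symbols are libraries A to D. The microglia and the monocyte and macrophage lists are higher at 1 week in every library, and the B cell, T cell and neutrophil lists reach at most 12.9 CPM and overlap between the groups.

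Outside the 8 class II genes, and among tested genes with a mean of at least 5 CPM, the 5 whose levels over the 8 libraries were most like those of Cd74 were Parp14, Ccl6, Psmb8, Apobec3 and H2-D1. Likeness was the root mean square difference of log2(CPM + 1) after each gene was centred on its mean, which was 0.155, 0.170, 0.174, 0.201 and 0.206 for these genes. H2-Ab1, at 0.194, was closer to Cd74 than Apobec3 and H2-D1. The value was 0.243 for H2-Eb1, 0.358 for H2-Aa and 1.15 for H2-DMa, and it gives a description with no test. Parp14, which encodes an ADP-ribosyltransferase, had 26.9 CPM ± 7.07 at 1 week and 3.67 CPM ± 0.212 without delay. H2-D1, a class I heavy chain, had 258 to 387 CPM at 1 week and 53.4 to 65.8 CPM without delay, and Psmb8, a subunit of the immunoproteasome, had 37.8 CPM ± 4.18 and 5.54 CPM ± 1.02 (SD, n = 4 each). The macrophage chemokine gene Ccl6 had 14.0 and 1.76 CPM, and Apobec3, a cytidine deaminase that restricts retroviruses, had 27.0 and 4.75 CPM.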

How the data were processed

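Total RNA from column extraction went into CAGE libraries, read from one end at 75 nt on a NextSeq instrument, per the labels' protocols. The submitters' processing notes name BWA 0.5.9 and the build mm9. For the rule that gave tags to genes, and its use of strand, nothing is given in the sources used here. Values were deposited by the authors in 1 table of CPM, with 8 columns whose names show the group but no replicate number; 0 columns were left out.

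The members and gene lists were chosen with earlier results of these data known. Of 109 list entries, 90 matched a symbol of the table, 2 of them through RefSeq synonyms and 2 in date form. Groups were compared on log2(CPM + 1) by limma with trend (version 3.58.1, under R 4.3.3), over genes with 1 CPM or more in at least 4 libraries, 2-sided, with Benjamini-Hochberg adjustment over all genes tested and calls at adjusted p under 0.05. Fold changes on this scale understate the change of low genes. Whole tags were recovered from the CPM steps (100% of values whole within 0.1 tags) for edgeR 4.0.16 and DESeq2 1.42.0 as alternatives. None of the 8 members shared its tags with another gene in every library. Ratios of genes were tested by exact permutation. All members are named, with up to 3 called genes of each list by absolute log2 fold change (the most abundant where none was called) and the 5 patterns most like Cd74; other names were chosen after their values were seen. The fits were tested on simulated data. Single results of 2 list genes are not reported here; the genes are counted in their lists.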

Additional observations from a re-analysis of the deposited data

Results flagged for a closer look

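In 6 of 70 groups of 4 libraries tested, 1 library stood apart from the other 3 (its gap to the nearest one, as a share of the group's range, was above Dixon's 95% critical value, which chance exceeds in about 1 group in 20). None of them was a group of a class II member. At 1 week, Cd63 reached 180.9 CPM and Ms4a7 16.9 CPM in library B, and Fscn1 was lowest in library D at 200.2 CPM. Without delay, Rfx5 was lowest in library B at 11.8 CPM, Fn1 was lowest in library B at 8.41 CPM, and Ms4a7 was lowest in library A at 0.31 CPM.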

How the results depend on the processing

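The 6 class II calls held in every alternative in which the gene was tested: pseudocounts of 0.25 and 4, no filter, TMM scaling, quantile normalization, edgeR and DESeq2 on recovered tags, and leaving out each library in turn. Each of these called 6 members, except the fit with no filter, which also tested Ciita and called 7 of 8. With a minimum of 5 CPM, 3 members were tested and 2 called, because fewer genes pass. Log2 fold changes of H2-Ab1 lay between 1.36 (pseudocount of 4) and 3.03 (DESeq2). Quantile normalization called 3211 genes lower and gave -0.024 for H2-DMa; the cause was not tested. With the pseudocount of 4, 6 of the 7 gene ratios passed, with differences over Csf1r of -0.88 for H2-Aa, -0.58 for H2-Ab1 and -0.72 for H2-Eb1, since a larger pseudocount compresses the lower gene of a ratio more. With 0.25, 0 passed; over Csf1r the differences were 0.75 for H2-Aa, 0.81 for H2-Ab1 and 0.68 for H2-Eb1, and over Cd74 they were 0.067 for H2-Aa, 0.13 for H2-Ab1 and -0.00058 for H2-Eb1. Without each library in turn, 0 ratios passed, and the limit of the exact test given above holds here too. The difference over Csf1r then ranged from -0.17 to 0.17 for H2-Aa and from -0.014 to 0.28 for H2-Eb1. Among genes not called, Cd276 had -0.036 with TMM scaling, -0.33 with quantile normalization, -0.035 with edgeR and -0.044 with DESeq2. Without each library in turn, Cd276 ranged from -0.060 to 0.14, Nfyb from -0.043 to 0.025 and Flt3 from -0.076 to 0.044. The calls of Nfyc and Jak1 were lost in 7 and 6 of 16 alternatives.
No paired analysis was possible because the columns carry no replicate numbers. Depth limits Ciita most, with 2 tags over the no-delay libraries.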
